A study of Mus musculus with 136 samples.

Results

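The regions of histone H3 lysine 27 trimethylation (H3K27me3) mapped in wild-type (WT) mouse embryonic stem cells (ESCs) in an original experiment were compared with those mapped again in a later rescue experiment. The regions are the rows of a pair of deposited lists, 41869 from the original experiment, where 2 replicates were pooled, and 63473 from the rescue experiment, where 3 replicates were pooled. They were 105342 of the 607753 regions and peaks in the 10 lists of the series, and rested on 5 of its 136 samples. A region was called held by both lists when at least 1 bp of it lay in a region of the other list, and original-only or rescue-only when none did. The study asked how cells keep histone marks when parental histones are passed unevenly to the daughter strands, in ESCs with the MCM2-2A mutation and in cells in which that mutation was reverted. All samples used here came from unmutated cells. WT clone 410 is a single clone of the male E14JU line (129/Ola), was untreated and grew in serum with LIF, in both experiments. H3K27me3, H3K4me3, H3K9me3 and H3K27ac were mapped by native chromatin immunoprecipitation of mononucleosomes after MNase digestion, with Drosophila chromatin spiked in, and SUZ12 was mapped in 3 pooled replicates by crosslinked immunoprecipitation.

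H3K27me3 is written by Polycomb repressive complex 2 (PRC2), of which SUZ12 is a core subunit and EZH2 the usual catalytic one. In ESCs it forms broad domains over silent developmental regulators, whose CpG-rich promoters often also carry H3K4me3 and are then called bivalent, and it spreads at lower levels between genes. H3K9me3 marks another form of silent chromatin, found mostly at repeats, and H3K27ac marks active promoters and enhancers, on the same lysine that PRC2 methylates. H3K4me3 of the original experiment covered the start windows of all 7 ESC marker genes examined, Pou5f1, Sox2, Nanog, Klf4, Esrrb, Zfp42 and Tfcp2l1. Of these, Pou5f1, Sox2, Nanog and Zfp42 lay in neither H3K27me3 list, Klf4 and Tfcp2l1 in the rescue list alone, and the start of Esrrb in both. Of 6 markers of differentiated lineages, the starts of Cdx2, Neurod1 and Olig2 lay in both lists and that of T in neither, and Gata6 and Sox17 had no start window. By span Gata6 was in neither list and Sox17 in the rescue list alone. Of 5 fibroblast markers, the start of Col1a2 lay in both lists and those of Twist2 and Prrx1 in the original alone, and Col1a1 and Thy1, with no start window, were in both by span. H3K4me3 was at the starts of 4 of the 6 and 3 of the 5, and the others had no start window to score. H3K4me3 thus did not set the ESC markers apart. H3K27ac was at the starts of 5 of the 7 ESC markers, 1 of the 6 and 0 of the 5, again with the genes without a window unscored.

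The promoters of 4 genes give 1 example from each class and do not stand for the class. The 250 bases before the start are given 5′ to 3′ on the gene's strand, from RefSeq (GRCm38.p6), with every CG in capitals because CpG-rich DNA is the usual site of PRC2 in ESCs. Isl1 (motor neuron and heart regulator, held by both lists, minus strand, chr13:116309689-116309938), Pou3f3 (forebrain regulator, original-only, plus strand, chr1:42695518-42695767), Ebf3 (neuronal regulator, rescue-only, minus strand, chr7:137314446-137314695) and Sox2 (pluripotency regulator, in neither list, plus strand, chr3:34649745-34649994) were chosen after their values were seen, to show 1 promoter of each class.
Isl1: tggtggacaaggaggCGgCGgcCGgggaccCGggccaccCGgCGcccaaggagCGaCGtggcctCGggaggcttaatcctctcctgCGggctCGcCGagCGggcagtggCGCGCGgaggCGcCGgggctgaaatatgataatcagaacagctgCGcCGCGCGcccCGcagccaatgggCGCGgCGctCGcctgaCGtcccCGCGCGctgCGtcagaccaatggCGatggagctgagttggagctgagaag
Pou3f3: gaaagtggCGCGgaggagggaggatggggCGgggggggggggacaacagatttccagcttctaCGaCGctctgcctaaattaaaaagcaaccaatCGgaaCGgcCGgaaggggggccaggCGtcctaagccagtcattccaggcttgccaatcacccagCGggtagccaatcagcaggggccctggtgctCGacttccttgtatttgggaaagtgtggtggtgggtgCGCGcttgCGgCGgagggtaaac
Ebf3: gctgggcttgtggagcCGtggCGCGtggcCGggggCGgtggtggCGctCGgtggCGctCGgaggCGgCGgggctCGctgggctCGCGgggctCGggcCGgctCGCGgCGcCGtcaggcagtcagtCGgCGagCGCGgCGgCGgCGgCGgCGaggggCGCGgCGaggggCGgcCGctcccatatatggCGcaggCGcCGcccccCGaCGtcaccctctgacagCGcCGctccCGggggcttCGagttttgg
Sox2: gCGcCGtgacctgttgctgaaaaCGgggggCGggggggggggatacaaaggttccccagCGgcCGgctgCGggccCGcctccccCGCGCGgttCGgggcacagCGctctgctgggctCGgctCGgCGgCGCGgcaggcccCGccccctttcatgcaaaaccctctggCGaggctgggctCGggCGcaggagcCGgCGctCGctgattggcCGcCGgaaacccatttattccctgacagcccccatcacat
These stretches held 33 CG in Isl1, 15 in Pou3f3, 43 in Ebf3 and 27 in Sox2. SUZ12 and H3K4me3 peaks lay at the start windows of Isl1, Pou3f3 and Ebf3, and Sox2 had H3K4me3 without SUZ12. Pou3f3 and Ebf3, each without a region in one of the lists, were therefore like Isl1 in both of the other marks. Most starts of their classes were not. Over all promoter windows, SUZ12 was at 50.1% of those in both lists and 39.3% in the original alone. It was at 24.2% of those in the rescue list alone, whose median was 6 CG.

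The rescue list was the larger one in regions and covered bases. It held 1.52 times as many regions and covered 2.56 times as many bases, 930 Mb or 34.9% of the mapped span against 363 Mb or 13.6%. Its regions had a median width of 7.53 kb (quartiles 2.74 and 18.0 kb) and reached 605 kb, while those of the original list had a median of 5.83 kb (2.86 and 10.9 kb) and reached 379 kb. The rescue libraries were sequenced deeper and as read pairs and the original ones as single reads, according to the study's library records, so depth and experiment cannot be told apart in what follows. The authors pooled replicates before the regions were listed, so no spread between replicates can be given. Both lists are labelled as reproducible peaks, but the rule that kept a region is not given in the sources used. The original list rests on 2 replicates and the rescue list on 3. Which regions such a rule left out of either list was not tested. Intervals are 95% Wilson intervals over regions, which cover counting error only.

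With the lists as deposited, most original regions were found again and most rescue regions were not in the original list. Of the original regions 28716 (68.6%, 68.1 to 69.0%) were held by both lists and 13153 were original-only. Of the rescue regions 23364 (36.8%, 36.4 to 37.2%) were held by both and 40109 were rescue-only. The order depends on the size of the lists and on the overlap asked for. Against the strongest rescue regions of equal covered bases, 22.4% of original and 68.5% of rescue regions were held by both, and under a reciprocal overlap of 50% these were 25.3% and 16.7%. In bases, 67.1% of the original list lay inside the rescue list and 26.2% of the rescue list inside the original one, and the 243 Mb they shared made up 23.2% of the 1050 Mb that either covered. The 687 Mb of the rescue list that the original list did not cover fell nearly evenly into rescue-only regions, with 372 Mb, and into the parts of held regions that reached past the original ones, with 314 Mb. The original list was different in this respect, since 107 Mb of its uncovered bases lay in original-only regions and 12.4 Mb at the edges of held regions.

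An original region was thus either covered nearly whole or missed. Among the original regions held by both lists the median share of bases covered was 100% (quartiles 97.6 and 100%), and 865 of them (3.01%) were covered over less than 50% of their width. Rescue regions held by both lists were covered over a median of 54.1% (27.1 and 80.8%). Of the original regions 28226 touched exactly 1 rescue region and 490 touched more than 1, whereas 4444 rescue regions touched more than 1 original region, with up to 9. In the 18144 pairs that touched only each other, the rescue region was the wider one in 85.3%, by a median ratio of 1.70 (1.12 and 3.65), and 62.2% of the original regions lay wholly inside it. The edges of these pairs were shifted outward in the rescue list by a median of 1130 bp (quartiles 50 and 4820 bp), and 41.3% of edges lay within 1 kb. Original-only regions lay well apart from rescue regions. Their median distance to the nearest one was 15.5 kb (7.04 and 33.7 kb), and 2.31% lay within 1 kb.

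The share held by both lists rose steeply with width in the rescue list and hardly moved in the original one. Of rescue regions under 2 kb, 7.42% were held by both, of those of 10 to 20 kb 49.9%, and of those of 100 kb and over 83.7% (80.7 to 86.4%). Of original regions under 2 kb 59.6% were held by both, and between 2 and 100 kb the share stayed between 70.0% and 71.7%. The 33 original regions of 100 kb and over stood at 81.8% with a wide interval of 65.6 to 91.4%. Rescue-only regions were narrow as a class, with a median of 4.63 kb against 14.9 kb for the held ones, while original-only regions, with a median of 5.39 kb, were close to the 6.03 kb of the held ones.

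**Figure D1:**
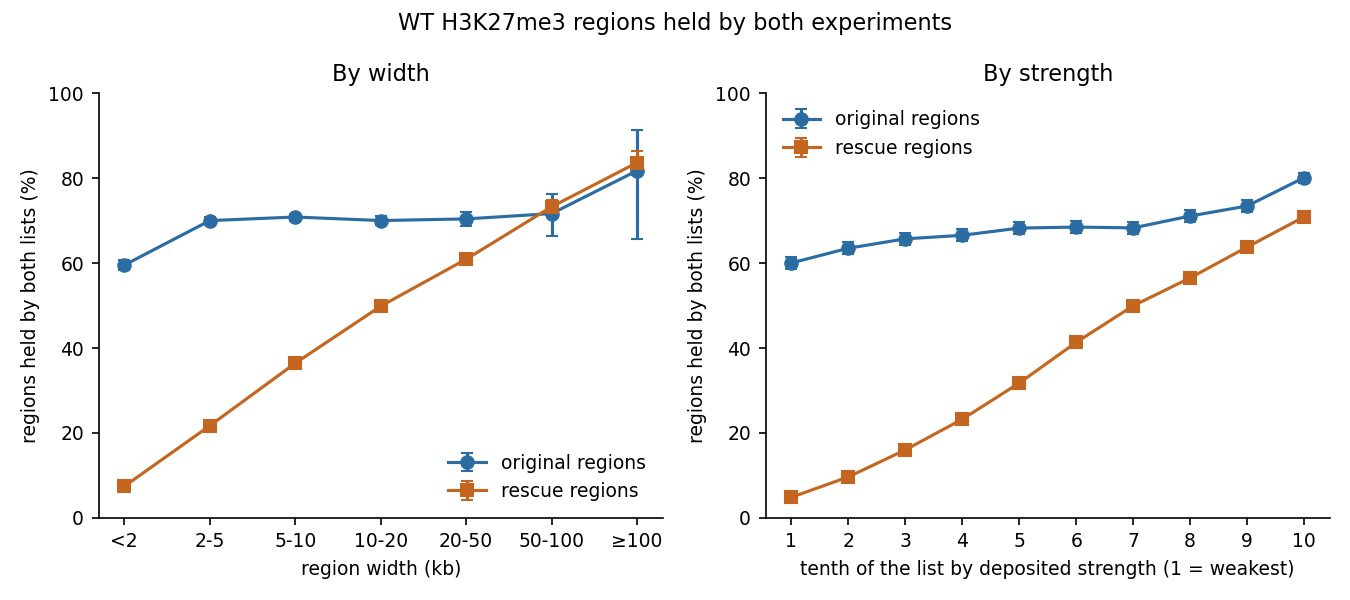
The share of regions held by both lists (%) is plotted by region width (kb, left) and by decile of the deposited strength value (right), for original regions (blue circles) and rescue regions (orange squares), with 95% Wilson intervals as bars. The rescue line climbs from 7.42% to 83.7% with width and from 4.84% to 70.9% with strength, and the original line goes from 60.1% to 80.2% with strength. Any overlap of at least 1 bp counts, which a wider region meets more easily, and stronger regions were also wider.

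Strength was taken as the last value the authors gave each region and was used only as a rank within a list. The share held rose with it in both lists, more in the rescue list. The weakest decile of the rescue list was held by both in 4.84% and the strongest in 70.9%. In the original list these were 60.1% and 80.2%. Strong regions of each list were therefore missing from the other, 830 in the strongest original decile and 1845 in the strongest rescue decile. Among regions of 10 kb and over alone, the share held went from 66.0% in the weakest quartile to 77.8% in the strongest in the original list, and from 42.9% to 69.6% in the rescue list. Stronger regions were also wider, so strength and width were not separated. Median width rose from 0.951 kb in the weakest to 28.0 kb in the strongest rescue decile, and from 2.07 to 15.9 kb in the original list. In the quartiles of 10 kb and over it still rose, from 14.6 to 33.3 kb in the rescue list and from 12.9 to 21.7 kb in the original list.

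The 5 widest original-only regions each overlapped a gene and SUZ12 peaks. The widest, chr15:102793760-103150890 in mm10 (357 kb), covered the whole HoxC cluster from Hoxc13 to Hoxc4, 9 homeobox genes that set position along the body axis. It ranked 3 of 41869 in strength, and it overlapped 18 SUZ12 peaks. The rescue list ended a region at base 102781100 and began the next one at base 103165750, with none over the 385 kb between. H3K4me3 peaks were there in both experiments, 40 in the original list and 44 in the rescue list. The 4 next in width lay over Emx2, a forebrain regulator (chr19:59374520-59494340, 120 kb), Dlk1, an imprinted Notch-family ligand (chr12:109379910-109496490, 117 kb), Efnb1, an ephrin (chrX:99113980-99229930, 116 kb), and Pou3f3 (chr1:42649270-42753970, 105 kb, rank 4 in strength). Each of these overlapped SUZ12, and the rescue list left stretches of 274 to 453 kb without a region around them.

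The 4 Hox clusters divided between the classes. HoxA (chr6:52155367-52260880) was covered to 100% by 1 region of each list. HoxB (chr11:96194316-96368254) was covered to 81.2% in the original and 98.0% in the rescue list. HoxC (chr15:102921131-103036856) and HoxD (chr2:74668225-74765142) were covered to 100% by the original list and to 0% by the rescue list. The original region over HoxD, 164 kb wide and rank 16 in strength, still counts as held by both, because a rescue region at its left end overlapped 1.47% of it. SUZ12 peaks covered 99.5% of HoxA, 57.7% of HoxB, 94.8% of HoxC and 67.5% of HoxD, so the clusters without rescue regions were not those with least SUZ12. H3K4me3 peaks of the rescue experiment covered 36.6% of HoxC and 33.9% of HoxD, against 34.6% and 30.3% in the original experiment. Why the rescue list held no region there was not tested. The lists used here may not hold every region of the experiments, so a missing region, and each count of original-only or rescue-only regions or genes, is a fact about these lists and does not show that the mark was absent.

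**Figure D2:**
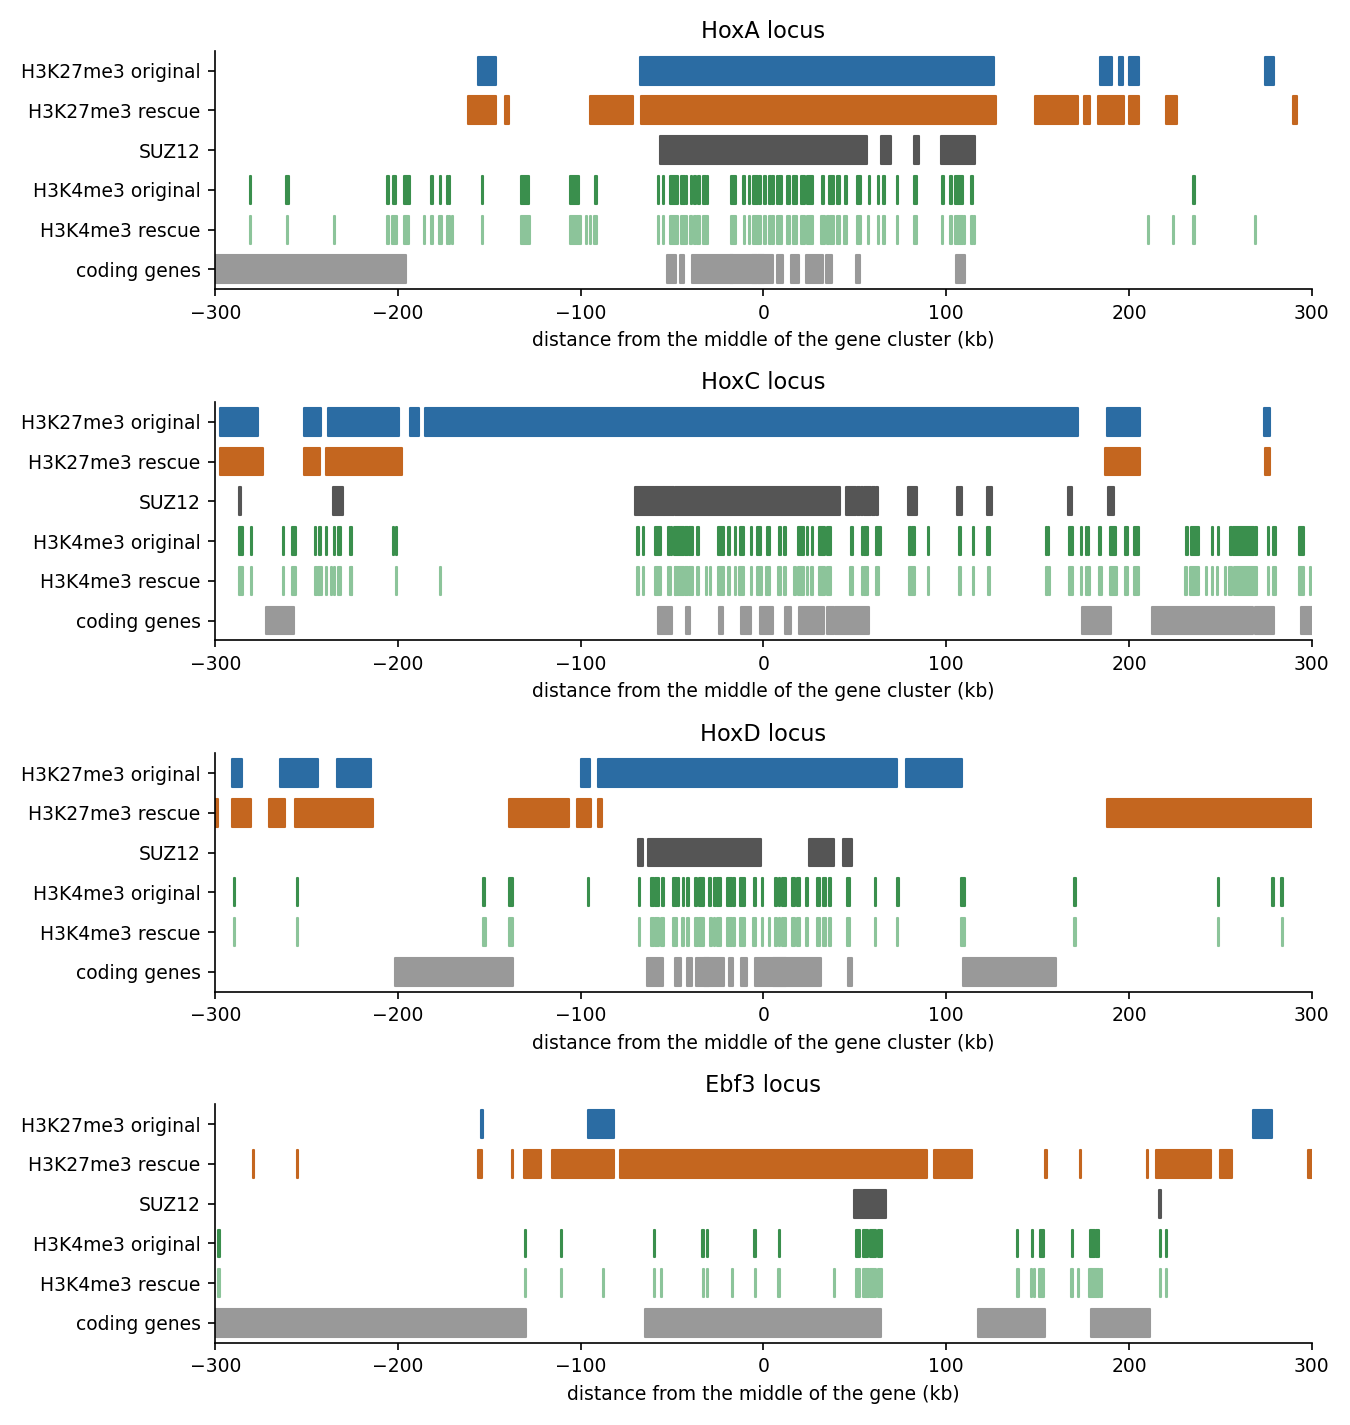
Regions and peaks are drawn as bars against the distance in kb from the middle of the HoxA, HoxC and HoxD gene clusters and of the gene Ebf3, with 1 row for each list and 1 for coding genes. Bars too short to see are drawn a little wider. The rescue row (orange) is empty over the HoxC and HoxD genes, where SUZ12 and both H3K4me3 rows hold peaks, and the original row (blue) is empty over Ebf3.

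The 5 widest rescue-only regions lay either between genes or over SUZ12-bound genes. The widest of all (chr8:103196150-103480980, 285 kb) overlapped no coding gene, no SUZ12 and no H3K4me3 peak, and neither did a region of 208 kb at chr7:95180340-95388530. A region of 196 kb at chr7:131702180-131898320 had no gene and no SUZ12 either, and 1 H3K4me3 peak. The second, chr15:27980310-28252530 (272 kb), covered the start of Trio, a guanine nucleotide exchange factor, with 2 SUZ12 and 15 H3K4me3 peaks, and the fourth, chr3:106972160-107175160 (203 kb), the potassium channel genes Kcna3 and Kcna2, with 2 SUZ12 peaks. The original list left 707 kb without a region around Trio. Regions were thus missing at SUZ12-bound genes from the original list as well as from the rescue list.

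Of the regions held by both lists, the 5 widest original ones were covered nearly whole by the rescue list and the 5 widest rescue ones in part by the original list. Of the original ones, the region between genes near Tenm4 (chr7:95535040-95913860, 379 kb) and that over Pappa, a metalloprotease gene (chr4:65062170-65338810, 277 kb), were covered to 100%, and those over HoxA (194 kb), Kcnq1 with Cdkn1c (175 kb) and HoxB (165 kb) to over 99.2%. Of the rescue ones, the region over Grm7, a glutamate receptor gene (chr6:110408700-111013390, 605 kb), joined 8 original regions that covered 39.5% of it. That over Kcnj1, Fli1 and Ets1 (chr9:32358700-32777460, 419 kb), the latter pair transcription factors of blood and vessels, met 1 original region over 1.74% of its width. Regions over Bcl11a (chr11:23966290-24378460, 412 kb), over Zfp503 and Lrmda (chr14:21913900-22310680, 397 kb) and between genes near Mgmt (chr7:136399470-136795200, 396 kb) were covered to 53.8%, 13.2% and 23.9%.

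SUZ12 and H3K4me3 were found more often at held regions of both lists. SUZ12 peaks overlapped 8.82% (8.50 to 9.16%) of original regions held by both and 3.81% (3.50 to 4.15%) of original-only ones, and 12.1% (11.7 to 12.5%) against 2.57% (2.42 to 2.73%) in the rescue list. H3K4me3 overlapped 26.5% against 14.8% in the original list and 39.8% against 17.9% in the rescue list, and H3K27ac 10.8% against 5.60% and 20.6% against 9.66%. Nearly all SUZ12 regions also had H3K4me3, 2526 of 2534 in original regions held by both and 1027 of 1030 in rescue-only ones. The most common state was none of SUZ12, H3K4me3 and H3K9me3, in 62.1% of held and 74.7% of original-only regions, and in 40.4% of held and 64.2% of rescue-only ones. These were also narrow, with medians of 4.61 kb in original-only and 3.47 kb in rescue-only regions.

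Wider regions meet any mark more often, and the classes differed in width, so the shares were set side by side within width classes. In original regions of 5 to 10 kb SUZ12 was at 6.90% of held and 1.94% of original-only regions, and at 20 to 50 kb at 29.9% and 20.7%. In rescue regions the gap was 9.94% against 1.34% at 5 to 10 kb, and it was gone at 50 kb and over, where 691 of 2676 held regions (25.8%) and 226 of 882 rescue-only regions (25.6%, 22.9 to 28.6%) had SUZ12. Averaged within width classes the SUZ12 difference was 4.36 percentage points (3.94 to 4.78) in the original list, against 5.02 over all widths. In the rescue list it was 5.64 (5.13 to 6.14) against 9.52, and that of H3K4me3 was 17.6 against 21.9. H3K9me3 behaved differently. It overlapped 33.1% of held and 22.1% of rescue-only regions over all widths, a difference of 10.9 percentage points (10.2 to 11.7), which within width classes turned to -2.56 (-3.32 to -1.80). Its share of bases was also the lower one in held regions, 4.60% against 5.90%. In the original list the H3K9me3 difference was small either way, 15.9% against 13.1% over all widths.

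**Figure D3:**
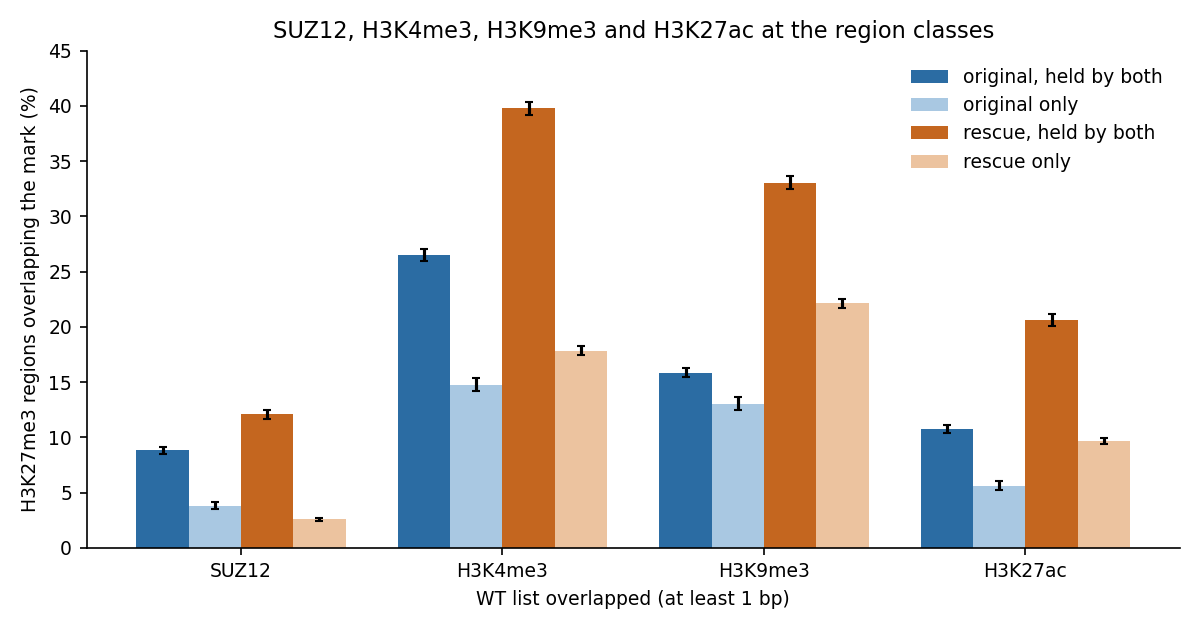
Bars give the share of H3K27me3 regions (%) that overlapped a SUZ12, H3K4me3, H3K9me3 or H3K27ac peak of the WT lists by at least 1 bp, with 95% Wilson intervals, for held regions (dark) and list-only regions (light) of the original (blue) and rescue (orange) lists. The dark bar is the higher one in every pair, by least for H3K9me3 in the original list (15.9% against 13.1%).

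The SUZ12 peaks were then sorted by the H3K27me3 list they lay in. Of the 6298 WT SUZ12 peaks, 3119 (49.5%) lay in both H3K27me3 lists, 648 (10.3%) in the original alone, 1824 (29.0%) in the rescue list alone and 707 (11.2%) in neither. The original list held 59.8% of them, the rescue list 78.5% and either list 88.8%. These shares did not rise with the fold enrichment of SUZ12. From the weakest to the strongest quartile the original list held 57.7%, 63.2%, 61.5% and 56.9% and the rescue list 79.0%, 82.0%, 79.8% and 73.1%. Peaks in neither list made up 12.1% of the weakest quartile and 13.3% of the strongest, whose 1574 peaks had at least 29.4-fold enrichment. The 5974 SUZ12 peaks with H3K4me3 divided in the same way, 49.9% in both lists and 11.2% in neither.

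**Figure D4:**
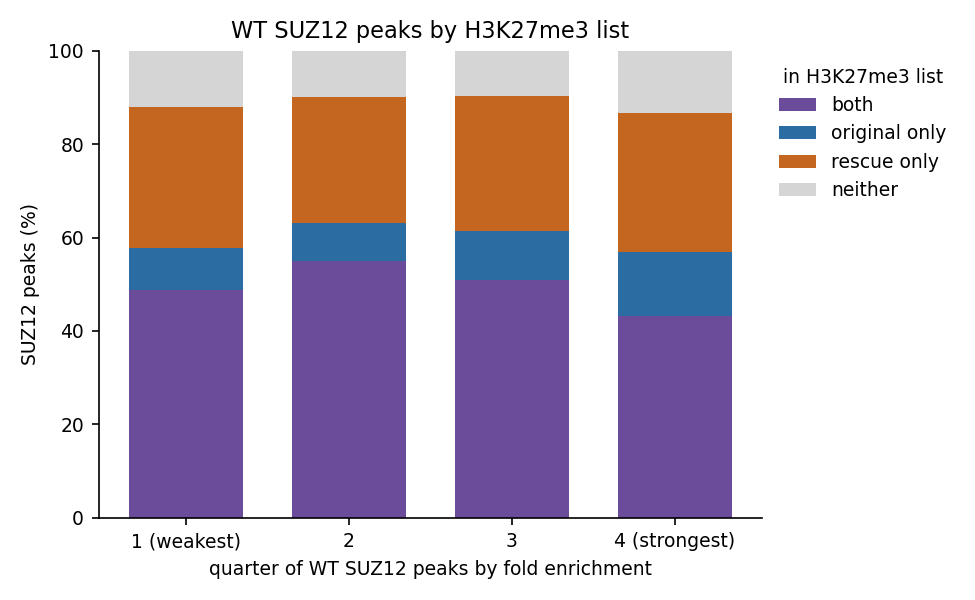
WT SUZ12 peaks are stacked (%) by whether they lay in both H3K27me3 lists, in the original alone, in the rescue list alone or in neither, for quartiles of SUZ12 fold enrichment from weakest to strongest. The part in both lists goes from 48.8% in the weakest to 43.3% in the strongest quartile, and the part in neither from 12.1% to 13.3%.

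More of the original H3K4me3 and H3K9me3 peaks than of the original H3K27me3 regions were found again in the rescue lists. Of the original H3K4me3 peaks 95.5% overlapped a rescue H3K4me3 peak, and of the original H3K9me3 regions 90.9% overlapped a rescue one, against 68.6% for H3K27me3. H3K4me3 also returned where H3K27me3 did not, as 2856 of the 2939 original H3K4me3 peaks inside original-only H3K27me3 regions (97.2%) were in the rescue H3K4me3 list. In the other direction 76.5% of rescue H3K4me3 peaks and 34.1% of rescue H3K9me3 regions were in the original lists, against 36.8% for H3K27me3, so H3K9me3 stood below H3K27me3 there. The rescue list was the larger one for these marks as well. The lists of the marks differ in how their regions were called, which limits the comparison of these shares.

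Chromosomes behaved alike except for the sex chromosomes. On autosomes the original list covered 12.5% to 16.4% of the span and the rescue list 32.6% to 42.2%, and the share of original regions held by both ran from 64.6% on chromosome 18 to 72.2% on chromosome 5. On chromosome X the lists covered 5.79% and 20.2%, with 832 of 1586 original regions (52.5%) and 727 of 3776 rescue regions (19.3%) held by both. Chromosome Y had 7 original and 245 rescue regions. In 2630 bins of 1 Mb the share covered in the original list followed that in the rescue list with Pearson's r of 0.66 and Spearman's rho of 0.65, a description across bins of the same pair of lists. The rescue list covered more in 2526 bins and the original list in 39. Original-only regions came in runs, since after a held region the next one on the chromosome was held in 79.5% and after an original-only region in 44.6%. The longest run counted 16, over chr12:93968200-94338780.

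Of 21887 coding genes, 6684 (30.5%) had at least 1 bp of their span in both lists, 927 (4.24%) in the original alone, 4521 (20.7%) in the rescue list alone and 9755 (44.6%) in neither. With a rescue list of equal covered bases the order turned, to 3113 genes in the original alone and 1665 in the rescue list alone. Genes in both lists were long, with a median span of 39.4 kb against 11.3 kb for those in the original alone, 13.7 kb in the rescue list alone and 12.5 kb in neither. Since any overlap sufficed, a long gene can be in both lists without sharing a base. The 17492 genes with a RefSeq start window give a stricter view, in which 2794 starts lay in both lists, 764 in the original alone and 3445 in the rescue list alone. SUZ12 was at 51.6% of starts in both lists, at 39.0% of those in the original alone, at 24.1% of those in the rescue list alone and at 3.70% of those in neither. Of held regions 38.8% overlapped a gene in the original list and 44.1% in the rescue list, against 35.6% of original-only and 38.2% of rescue-only regions. Gene starts differed more, at 9.27% of held against 5.07% of original-only regions, and at 14.9% of held against 5.17% of rescue-only ones. Wider regions meet genes and starts more often, and these shares were not set within width classes. In bases, 32.2% of held and 31.1% of original-only regions lay in genes. For held and rescue-only regions of the rescue list these were 31.2% and 30.4%.

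Base composition was taken over 21263 promoter windows, from 250 bases before to 50 after the start. Among windows in at least 1 list it followed SUZ12 more than the list that held them. The motif was CG, which reads the same on both strands and was present in 95.4% of all windows. Windows whose start lay in both lists had a median of 15 CG, those in the original alone 11, those in the rescue list alone 6 and those in neither 15. With SUZ12 at the window the medians were 23, 22, 22 and 22 in the same order, and without it 7, 5, 4 and 14. Among windows without SUZ12, those in neither list therefore held more CG than those in a list. Windows in the rescue list alone were thus CG-poor where SUZ12 was missing, and 75.8% of them had no SUZ12 peak.

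The lists of developmental regulators are read against all genes, of which 30.5% were in both lists, 4.24% in the original alone, 20.7% in the rescue list alone and 44.6% in neither. Of the 39 Hox genes 20 were in both lists, which were all 11 HoxA genes and 9 of HoxB, 18 in the original alone, which were all 9 HoxC and all 9 HoxD genes, and 1, Hoxb13, in the rescue list alone. Each of the 4 clusters met 1 original region, so the Hox genes of a cluster are not separate observations. Hoxa3 and Hoxb3 were covered to 100% in both, and Hoxd3 and Hoxc4 to 100% in the original and 0% in the rescue list. Of 32 neural regulators 13 were in both lists, 7 in the original alone, 4 in the rescue list alone and 8 in neither. Pax6 (eye and forebrain, 83.3% and 83.9% covered), Isl1 and Otx1 (both 100% and 100%) were in both, and Lhx5 was covered to 100% in the original alone. Other original-only members, named after their values were seen, included Pou3f3, Dlx1, Dlx2, Sox1 and Emx2. All 32 neural regulators overlapped a SUZ12 peak, those in neither list among them.

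Of 30 mesoderm regulators 13 were in both lists, 3 in the original alone, 7 in the rescue list alone and 7 in neither, so their 23.3% in the rescue list alone was near the 20.7% of all genes. Pax3, a muscle and neural crest regulator, was covered to 100% in both, Tbx20 (heart) to 86.7% and 100%, Pax2 (kidney) to 42.0% and 81.9%, and Pax8 (thyroid and kidney) to 56.6% and 88.4%. Of 16 endoderm regulators 7 were in both, among them Foxa1 (100% and 100%) and Hnf4a (31.9% and 58.7%), 1, Gata5, in the original alone (66.1% and 0%), 5 in the rescue list alone and 3 in neither. SUZ12 overlapped 5 of the 7 mesoderm and 3 of the 3 endoderm genes in neither list. Of 12 trophoblast genes 9 were in both and 3 in the rescue list alone, with Gata3 and Eomes at 100% in both. Of 55 Wnt, Fgf, Bmp and Hedgehog ligands 31 were in both, 1 in the original alone and 12 in the rescue list alone. Fgf13 was covered to 10.7% in the original and 20.1% in the rescue list with no base in common.

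Pluripotency genes were mostly outside, with 15 of 22 in neither list, 4 in both and 3 in the rescue list alone. Those in both were Esrrb (27.6% and 43.7% covered), Tbx3 and Dppa3 (each 100% and 100%) and Prdm14 (31.6% and 36.9%). Of 14 formative and primed genes 7 were in both, and of 18 germline genes 11, with Dazl and Tdrd6, needed for germ cells, at 100% in both. Of 20 two-cell genes 10 were in the rescue list alone and 1, Tdpoz4, in both. Rescue coverage of the 10 ran from 1.41% of the span (Tdpoz1) and 2.93% (Zfp352) to 100% (Sp110 among others). By start, 3 two-cell genes were in the rescue list alone, 1 in both and 11 in neither. Of all genes with a start window, 19.7% were in the rescue list alone by start. Many two-cell genes, such as the Tdpoz, Zscan4 and Usp17l genes, have close copies among which reads could be split. Of 34 imprinted genes 17 were in both, Kcnq1 with 71.6% and 81.9% covered, 4 in the original alone and 6 in the rescue list alone. PRC2 and PRC1 subunit genes were in neither list in 18 of 32 cases.

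Long genes made up the other large group in both lists. All 40 long neuronal adhesion and synaptic genes were in both, at medians of 18.7% and 44.5% covered. Their median span was 1147 kb against 17.2 kb over all genes, so under the 1-bp rule their length alone makes an overlap with both lists likely. No share was taken over genes of like length. The bases the lists shared varied from gene to gene. Robo2, an axon guidance receptor gene, was covered over 294 kb in the original and 1106 kb in the rescue list with 251 kb in common. Ptprd, a receptor phosphatase of synapses, was covered over 590 kb in the original and 1037 kb in the rescue list with 356 kb in common, and Cntnap2, a neurexin-family adhesion gene, over 461 and 654 kb with 112 kb in common. The rescue list covered 71.1% of Robo2, 45.7% of Ptprd and 29.2% of Cntnap2, and the wider its cover, the fewer original bases can lie outside it. Cntnap2, Dlg2 (a synaptic scaffold, 411 and 738 kb, 109 kb in common) and Grm8 (a glutamate receptor, 430 and 394 kb, 174 kb in common) had the most original bases outside the rescue list. The clustered protocadherins, cell-surface identity genes of neurons, were in both in 48 of 57, in the original alone in 8 and in the rescue list alone in 1, Pcdhac2. The 8 were Pcdhb15 to Pcdhb22, which lie side by side. Their spans overlap within a cluster, so they are not separate observations. Glutamate and GABA receptor genes (median span 183 kb) were in both in 39 of 47, potassium channel genes (32.2 kb) in 54 of 80 and cadherins (148 kb) in 19 of 23. The same limit of length applies to them. Cdh11 was covered to 51.3% in the original alone.

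Among genes with no original region, those with the most rescue bases were Stk39 (a stress kinase, 203 kb covered), Rorb (a retinal and cortical nuclear receptor, 167 kb), Chrm2 (a muscarinic receptor, 135 kb), C030002A05Rik (135 kb), Pparg (the fat cell regulator, 130 kb) and Ebf3 (129 kb). Skint6, Lgr5 (a stem cell receptor) and Ets1 followed with 122 to 127 kb. Pparg, Ebf3 and Ets1 were covered over 100% of their spans, and of the genes named here all but C030002A05Rik and Skint6 overlapped SUZ12. Fibroblast genes were in both in 11 of 16, against 30.5% of all genes. Their median span was 39.3 kb against 17.2 kb over all genes, so the limit of length applies to them too. Col6a3 was covered to 70.7% in the original and 0% in the rescue list, and Prrx1 to 61.9% and 30.1% with no base in common.

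Large families of tissue genes were counted in the same way. Of 1110 olfactory receptors 151 were in both, 78 in the original alone, 37.9% in the rescue list alone and 460 in neither. Of 353 vomeronasal receptors 118 were in the rescue list alone, of 97 cytochrome P450 genes 43, of 109 keratins and keratin-associated proteins 40, of 63 serpins 24 and of 70 defensins 22. These shares of 31.4% to 44.3% stand against 20.7% of all genes. Outside the vomeronasal receptors the excess was not particular to the rescue list. In the original alone the vomeronasal receptors stood at 4.53%, near the 4.24% of all genes. The other families had shares there from 6.19% (cytochrome P450 genes) to 11.1% (serpins). Olfactory receptors stood at 7.03% there and defensins at 10.0%. SUZ12 overlapped 2 of the olfactory receptors, 13 of the cytochrome P450 genes, 8 of the keratins and keratin-associated proteins, 1 of the serpins and none of the vomeronasal receptors and defensins. Of 27 prolactin family genes 9 were in the rescue list alone, and of 70 chemokines and interleukins 20, with SUZ12 at 1 and 8 of them. Reads of close copies in these families may be split, and their counts are uncertain for that reason. Housekeeping genes were mostly outside. None of 76 ribosomal protein genes was in either list, and of 39 proteasome subunit genes 4 were in the rescue list alone. These were Psmb8 and Psmb9, immunoproteasome subunits covered to 100%, and Psma6 and Psmb2, covered over 3.62% and 0.0436%. Of 97 core histone genes 83 were in neither list. Zfp genes, which are not housekeeping genes, were in neither list in 251 of 397 (63.2%), against 44.6% of all genes. Of the others 68 were in both, 10 in the original alone and 68 in the rescue list alone.

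**Figure D5:**
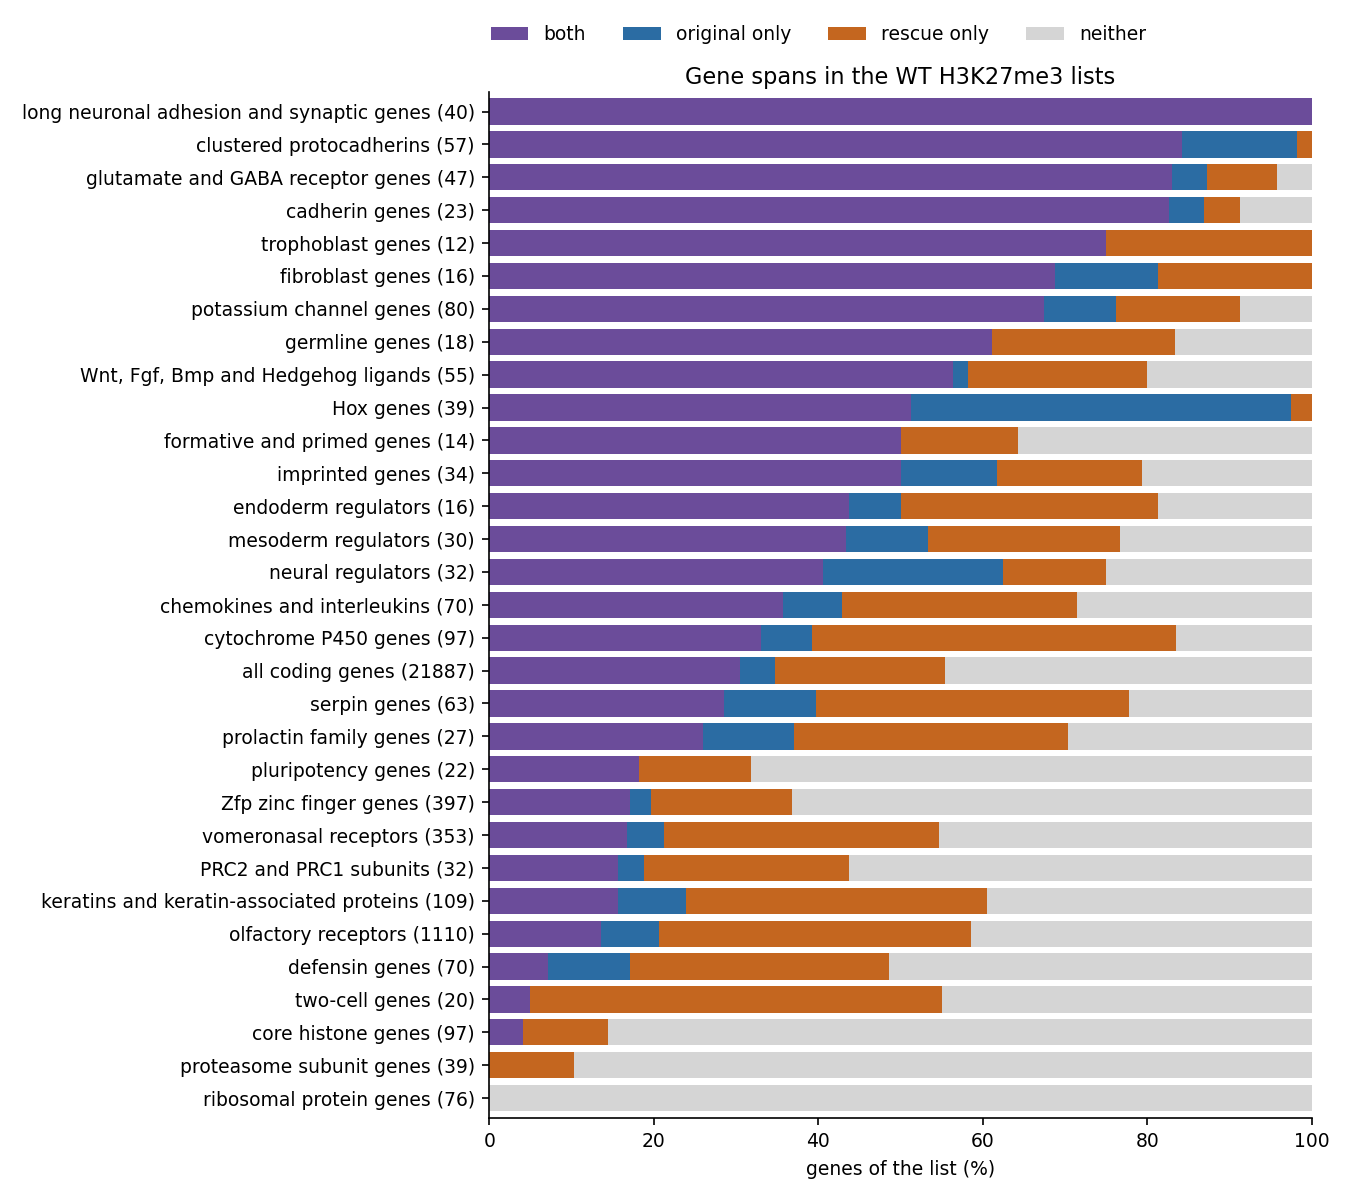
Each bar divides the genes of a list (number of genes in brackets) by whether at least 1 bp of the gene span lay in both H3K27me3 lists, in the original alone, in the rescue list alone or in neither (% of genes), sorted by the share in both. All coding genes stand at 30.5%, 4.24%, 20.7% and 44.6%, and Hox genes have the largest original-only part. Neighbouring genes under 1 region, as in the Hox clusters, are not separate observations.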

How the data were processed

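Per the labels, chromatin of clone 410 was immunoprecipitated in 2 (original) and 3 (rescue) H3K27me3 replicates, and 1 list of regions per experiment was deposited, on mm10, from pooled replicates. Tools listed by the submitters' processing notes were MACS2 2.1.0, Picard 2.20.7, BWA 0.7.15 and cutadapt 2.5, with no roles. For the broad regions, the caller and the rule behind the label of reproducible peaks are not given in the sources used. The broad lists the authors deposited (H3K27me3, H3K9me3) give a position in steps of 10 bp, a length in bp (another unit than counts) and a strength score of unstated scale, used here only as a rank. The narrow lists the authors deposited (SUZ12, H3K4me3, H3K27ac) give a fold enrichment over background, a ratio. No read counts or signal were used, so the depth behind a region is unknown from the lists. Of the 10 lists 8 were used, and the SUZ12 lists of mutant clones were not used here.

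Overlaps of at least 1 bp were computed in Python 3.11.15 with numpy 2.4.6 and pandas 2.3.3, and the interval functions were tested on simulated regions. Main H3K4me3 and H3K9me3 lists were those of the original experiment. Coding genes and start windows came from RefSeq (GRCm38.p6, the assembly of mm10): 21887 genes, of which 17492 had a window. Of the listed symbols 1 was not found. Regions are neighbours on 1 genome and not replicates, so no test was run. Named regions were the 5 widest of each class. Named genes of at least 10 kb had the most bases in both lists, in the original outside the rescue list, or in the rescue list with no original region, and up to 4 per gene list had the most covered original bases. Some genes these rules chose are not reported here. Alternatives were a reciprocal overlap, stronger regions, joined regions, autosomes, a rescue list of equal bases, other gene rules and other mark lists. The regions and gene lists were chosen with earlier results of these data known.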

Additional observations from a re-analysis of the deposited data

How the results depend on the processing

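No paired analysis was possible because each list pools its replicates. Each setting changes the lists or the overlap rule by its construction, and other causes of a change were not tested. Original regions were held by both in 25.3% under a 50% reciprocal overlap, 67.2% among the stronger 50%, 70.1% after joining within 5 kb, 69.2% on autosomes and 22.4% against the strongest rescue regions of equal bases (9890 regions). For rescue regions these were 16.7%, 38.8%, 45.1%, 38.1% and 68.5%. Original bases inside the rescue list were 67.0% (stronger 50%), 67.8% (joined), 67.5% (autosomes) and 34.0% (equal bases), and rescue bases inside the original list 23.0%, 26.0%, 26.6% and 34.0%. With 50% of the span required, 1610 genes were in both lists and 577 in the original alone. With equal bases 3113 were in the original alone and 1665 in the rescue list alone, and by start base, a rule added after seeing the data, 2794 were in both. Mark differences, in percentage points for the original then the rescue list, were for SUZ12 14.7 and 14.7 (reciprocal), 10.1 and 15.5 (stronger 50%), 4.36 and 5.64 (within widths). For H3K4me3 they were 30.1 and 26.3, 18.3 and 24.0, 10.6 and 17.6, and 23.4 in the rescue list with the H3K4me3 list of the rescue experiment. For H3K9me3 they were 6.19 (reciprocal) and 4.06 (rescue mark list) in the original list, and 4.60 (stronger 50%) and 15.6 (rescue mark list) in the rescue list, where they reversed to -0.31 (-1.22 to 0.61) under the reciprocal overlap and to -2.56 within widths. The other 13 values kept within the interval, or 1.5 times the count, of the main value. Region counts depend on the depth of the libraries, which was not equalised, and a region missing from a list is not evidence of a missing mark.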
